A study of Homo sapiens with 16 samples.

Results

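The 7 protein-coding genes GET4, TAF12, WDR74, TM2D1, KDM5C, DNAJC8 and MPI each had a peak of the Integrator subunit INTS13 over the gene or within 2500 bp of either end in all 3 INTS13 peak lists of the study. They are 7 of the 20033 protein-coding genes placed on chromosomes 1 to 22, X and Y. They were chosen from the peak lists themselves, for INTS13 in every condition, so these values describe the genes and support nothing by themselves. Control strength may have entered the choice too, but the full criterion was not stated. Among genes with INTS13 in all 3 lists, the weakest of the 7 in control cells were DNAJC8 and MPI, with a −log10 q of 19.6, and the next gene below them was FBXO28, with 18.7. Another 8 genes lay at or above 19.6 and are not among the 7, including SUN1, which shares the peak of GET4, and IQSEC2, which shares that of KDM5C.

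The data are ChIP-seq (chromatin immunoprecipitation and sequencing) of HEK293T, a standard cell line of human embryonic kidney origin. The antibody to INTS13 was used on 3 kinds of cells: control-depleted cells, cells in which siPOOLs (mixed small interfering RNAs) had lowered HDGF for 72 h, and cells in glucose-free medium for 24 h. The antibody to HDGF was used on the control-depleted and on the starved cells. The study asked whether starvation, or the movement or loss of HDGF, goes with a different placement of INTS13. The 2 labelled replicates of each ChIP group came with 1 deposited peak list, so the values have no replicate error and no difference between conditions could be tested. Per the labels the INTS13 antibody came from Bethyl in control and HDGF-depleted cells and from Proteintech in starved cells, so antibody and starvation cannot be told apart in the INTS13 starvation list. The HDGF antibody came from Proteintech in both HDGF groups. The sample titles name a control depletion for the control cells and none for the starved cells. For both antibodies this labelled difference cannot be told apart from starvation.

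INTS13 belongs to the Integrator complex, which cleaves the nascent transcripts of small nuclear RNA (snRNA) genes and can end transcription by RNA polymerase II near the promoters of protein-coding genes. HDGF is a nuclear protein with a PWWP domain, a module that binds histone H3 methylated in the bodies of transcribed genes. A peak in these lists marks a place where more DNA was recovered with the antibody than in the background of the same list.

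The INTS13 lists held 31233 peaks in control cells, 105994 after HDGF depletion and 15639 in starvation, and the HDGF lists held 106674 and 68138. The background, in reads per position as worked out from the deposited folds and p-values, was 6.40, 4.20 and 15.2 reads for the INTS13 lists in that order, and 6.69 and 9.84 reads for the HDGF lists. The starvation values, and the reads at starvation summits given below, are before a scaling that the deposited values imply, after which both starvation backgrounds were 7.41. A peak in any gene window is therefore not rare in some lists: 13.2% of protein-coding genes had INTS13 in control cells, 51.2% after HDGF depletion and 11.7% in starvation. All 3 INTS13 lists together placed a peak at 1358 genes, 6.78%. Their median length was 38508 bp, against 24130 bp for all protein-coding genes and 32752 bp for the 7.

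The promoters of the 5 genes with INTS13 over a RefSeq promoter window in control cells are shown first. Not all INTS13 summits described below lie near these windows. The strongest peaks of TAF12 and the starvation peaks of DNAJC8 lay elsewhere. Each window runs from 250 bases before to 50 bases after the start site, 5′ to 3′ on the coding strand, from RefSeq GRCh38.p14. The windows are chr1:28643018-28643317 for TAF12, chr1:61725092-61725391 for TM2D1, chrX:53225158-53225457 for KDM5C and chr1:28232980-28233279 for DNAJC8, all on the minus strand, and chr15:74889792-74890091 on the plus strand for MPI. Capitals mark exact matches to 1 of 8 motifs that were searched on both strands.
TAF12: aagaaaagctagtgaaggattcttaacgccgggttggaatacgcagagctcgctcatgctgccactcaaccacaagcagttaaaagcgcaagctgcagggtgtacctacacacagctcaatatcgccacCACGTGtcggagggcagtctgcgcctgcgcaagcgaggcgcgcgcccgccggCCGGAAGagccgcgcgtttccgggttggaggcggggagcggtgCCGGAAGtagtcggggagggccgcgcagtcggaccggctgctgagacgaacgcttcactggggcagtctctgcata
TM2D1: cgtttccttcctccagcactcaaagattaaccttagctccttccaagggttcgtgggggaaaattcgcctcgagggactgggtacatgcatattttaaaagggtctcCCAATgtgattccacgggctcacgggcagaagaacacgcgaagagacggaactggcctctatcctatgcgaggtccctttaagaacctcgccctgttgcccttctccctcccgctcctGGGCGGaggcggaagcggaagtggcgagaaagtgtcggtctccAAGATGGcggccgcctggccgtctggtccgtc
KDM5C: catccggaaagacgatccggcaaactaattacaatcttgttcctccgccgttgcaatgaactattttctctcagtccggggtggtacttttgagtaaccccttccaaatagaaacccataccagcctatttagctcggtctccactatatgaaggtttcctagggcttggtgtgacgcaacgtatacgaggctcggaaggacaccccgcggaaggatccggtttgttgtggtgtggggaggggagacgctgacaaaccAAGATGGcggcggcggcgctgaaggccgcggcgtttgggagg
DNAJC8: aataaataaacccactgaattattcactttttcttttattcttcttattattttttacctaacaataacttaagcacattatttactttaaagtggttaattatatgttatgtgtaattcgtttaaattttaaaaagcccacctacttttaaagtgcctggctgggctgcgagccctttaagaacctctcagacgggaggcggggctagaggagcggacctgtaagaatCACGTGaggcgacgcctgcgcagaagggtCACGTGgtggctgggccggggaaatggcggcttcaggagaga
MPI: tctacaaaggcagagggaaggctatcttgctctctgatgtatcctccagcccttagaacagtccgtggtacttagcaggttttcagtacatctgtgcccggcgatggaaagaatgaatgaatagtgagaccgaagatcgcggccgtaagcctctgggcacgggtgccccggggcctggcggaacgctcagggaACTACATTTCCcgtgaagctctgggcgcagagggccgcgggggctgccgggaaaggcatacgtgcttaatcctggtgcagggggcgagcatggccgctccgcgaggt

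The 8 motifs are named for the factors known to bind such letters. The ETS family motif was searched as CCGGAAG, that of NRF1 as GCATGCGC, and that of the SP and KLF families as GGGCGG. For NF-Y the letters were CCAAT, for the E-box proteins CACGTG, and for YY1 AAGATGG. The TATA box was searched as TATAAA, and ZNF143 and THAP11 share the last motif, whose match in MPI is given below. None of the motifs contains another. Of the 7 genes, 6 had at least 1 window in the RefSeq table, all but GET4. TAF12 held CCGGAAG at −69 and at −26 from the start site, counting the start base as +1, and CACGTG at −121. DNAJC8 held CACGTG at −21 and at +9, and 7.26% of all 35116 promoter windows held this motif. TM2D1 held AAGATGG at +19 and KDM5C held it at +9, just past the start site in both, and 5.84% of windows held it. TM2D1 also held GGGCGG, found in 45.0% of windows, and CCAAT, found in 34.6%. MPI held ACTACATTTCC at −57, a motif found in 1.89% of windows. WDR74 held CCGGAAG at −15, found in 10.3% of windows. GCATGCGC and TATAAA, found in 3.05% and 11.5% of windows, were in none of the 6 genes. No motif was shared by more than 2 of the 6 genes. A match is a description of the letters, not a binding site. The GC content was 62.7% in TAF12, 59.7% in MPI, 57.7% in TM2D1, 54.3% in KDM5C and 42.7% in DNAJC8, against a median of 58.7% over all windows.

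INTS13 lay over a RefSeq promoter window of 5 of the 6 genes in control cells, where 2.48% of the 15842 genes with such a window had a peak. It lay over the same 5 after HDGF depletion, against 6.75%, and over 4 in starvation, against 4.89%. The genes were chosen for their INTS13 peaks, so counts above the shares of all genes follow in part from that choice. The 4 with INTS13 over the same window in all 3 lists were TAF12, TM2D1, KDM5C and MPI, against 159 genes, 1%, of those with a window. By position the genes fall into 4 kinds. These 4 had promoter peaks, WDR74 had its strongest peaks at an snRNA gene within its record, and DNAJC8 had a promoter peak in control and depleted cells alone. GET4 is set apart because it had no RefSeq promoter window. Its peak lies beside the lower end of its record, and whether it is a promoter peak was not settled. TAF12 had a second and stronger site, also at an snRNA gene.

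**Figure D1:**
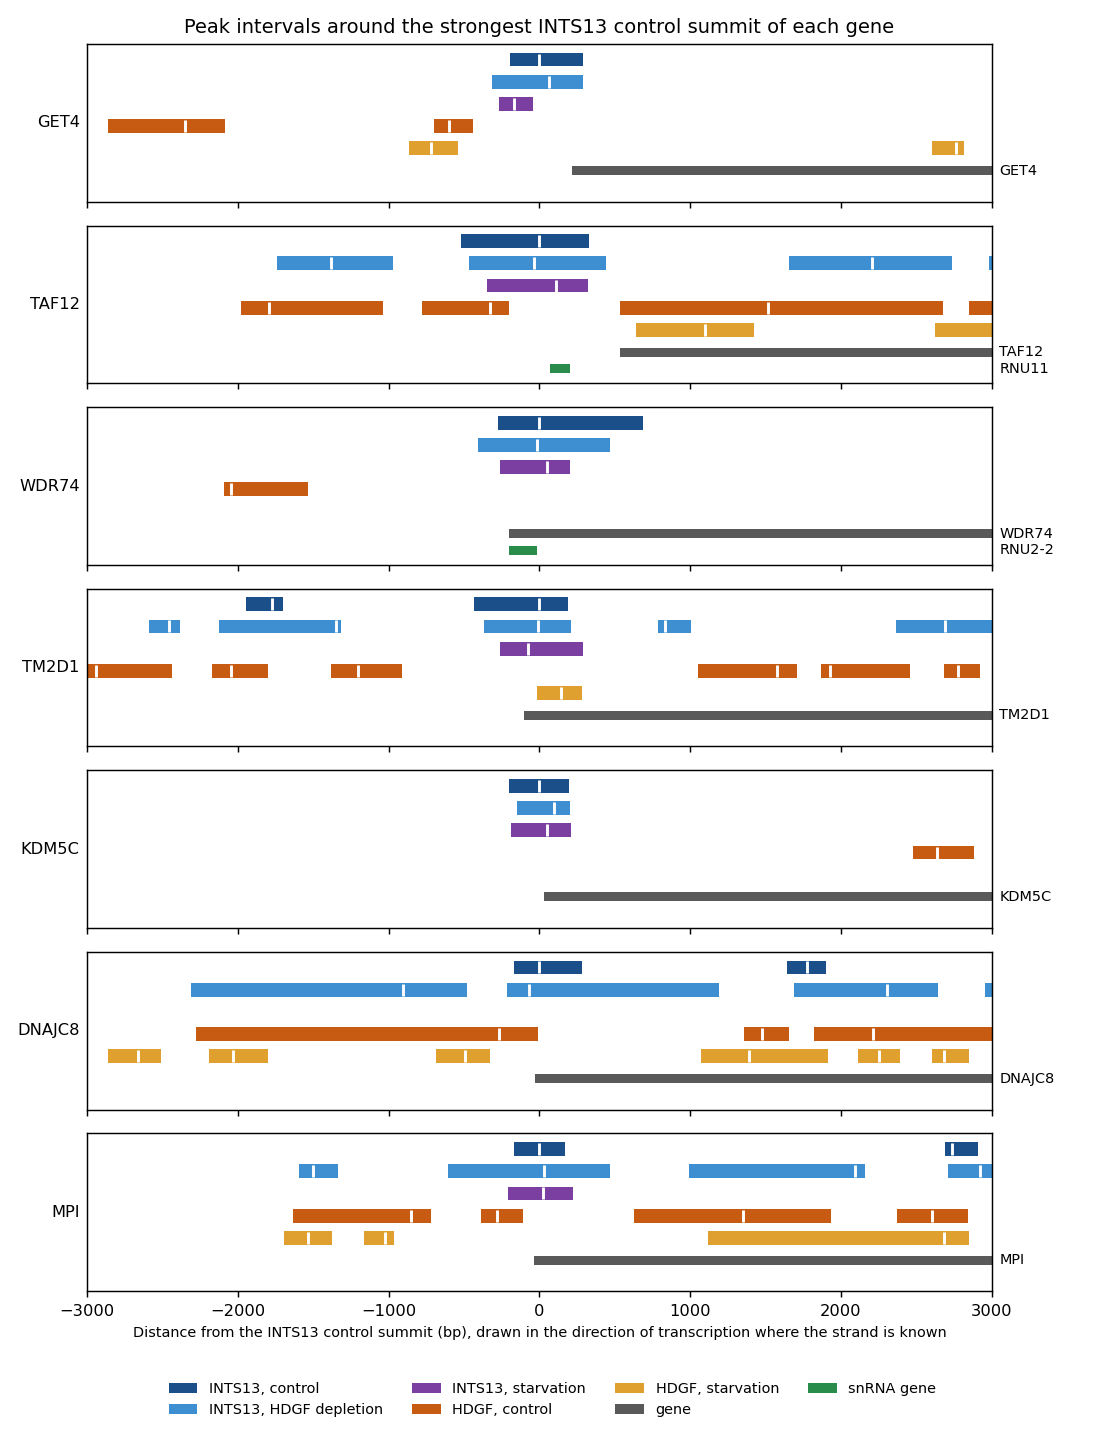
Peak intervals of the 5 lists within 3 kb of the strongest INTS13 control summit of each gene, in bp from that summit and in the direction of transcription where the strand is known; bars are peaks, white ticks are summits, grey bars are gene records and green bars are snRNA genes. The INTS13 bars of the 3 lists stack at 6 genes, and DNAJC8 has no INTS13 starvation bar there.

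MPI encodes mannose phosphate isomerase, which links glucose metabolism to the mannose supply for protein glycosylation. Its strongest INTS13 peak had a fold over background of 6.35 in control cells, 5.77 after HDGF depletion and 6.42 in starvation, with 46, 29 and 109 reads at the summit. The exact Poisson 95% intervals of these reads were 33.7 to 61.4, 19.4 to 41.6 and 89.5 to 131, which cover counting error only. MPI stood near the top of each list, at percentiles of 99.27, 99.66 and 99.21. Percentiles here give tied peaks their mean rank. The 3 summits lay 38, 67 and 59 bp past the start site, within 29 bp of one another. The smallest of its 3 percentiles was the 4th highest among the 1358 genes.

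TM2D1 encodes a membrane protein of the TM2 domain family. Its strongest peak had folds of 7.84, 8.27 and 5.50 in control, depleted and starved cells, with 57, 42 and 93 reads at the summit. The summits lay 102, 95 and 27 bp past the start site. The control and depletion summits were thus 7 bp apart, and the starvation summit was 75 bp nearer the start. TM2D1 and MPI were the only ones of the 7 with a −log10 q of at least 10 in all 3 lists, a mark that 25 protein-coding genes, 0.125%, reached.

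KDM5C encodes a histone demethylase on the X chromosome. Its strongest peak had folds of 6.62, 3.85 and 4.74, with 48, 19 and 80 reads at the summit. The depletion peak stood lower in its own list than those of the other 6: it had rank 11966 of 105994, with a −log10 q of 4.15, and the exact Poisson 95% interval of its 19 reads was 11.4 to 29.7. In the control and starvation lists the same site had ranks 191 and 343. The summits lay 30 bp before the start site in control cells, and 70 bp and 23 bp past it after depletion and in starvation. The lower end of IQSEC2, the next gene, lay 576 bp from the control summit.

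TAF12 encodes a histone-fold subunit shared by the general transcription factor TFIID and the coactivator SAGA. At its start site the INTS13 peak had folds of 6.62, 5.39 and 4.05, with 48, 27 and 68 reads and summits 54, 10 and 45 bp past the start. This site was not its strongest. The strongest peak was chr1:28648477-28649322 in control cells. Its summit lay at −5736 bp from that start site and 534 bp beyond the upstream end of the TAF12 record. The peak covered RNU11, the gene of the U11 snRNA of the minor spliceosome. There the folds were 9.19, 9.24 and 4.28, with 67, 47 and 72 reads. The control summit was 69 bp from the nearer end of RNU11 and the starvation summit was inside it, 42 bp from an end. The same peak also covered the noncoding gene TAF12-DT, whose end was 2 bp from the control summit.

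WDR74 encodes a nucleolar protein of large ribosomal subunit maturation. Its strongest peak, chr11:62840921-62841879 in control cells, had folds of 8.11, 8.08 and 4.05, with 59, 41 and 68 reads at the summit. None of the 3 lists had a peak over either of its promoter windows. The summits lay at −1947, −1966 and −1899 bp from the nearest RefSeq start site, that is upstream of it. They were 203, 184 and 251 bp inside the upper end of the WDR74 record, its upstream end on the minus strand. They were also 13, 6 and 61 bp from the lower end of RNU2-2, a gene of the U2 snRNA that lies within the WDR74 record. In all 3 lists this site held the strongest INTS13 peak in the WDR74 window.

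GET4 encodes a subunit of the BAG6 complex, which hands tail-anchored membrane proteins to the GET insertion pathway. Its strongest peak, chr7:876141-876624 in control cells, had folds of 9.19, 13.7 and 3.88, with 67, 70 and 65 reads at the summit. It was the only INTS13 peak in the GET4 window in each of the lists. After HDGF depletion no protein-coding gene had a stronger INTS13 peak, and in starvation GET4 ranked 308 of the 2334 genes with a peak. The summits lay 216, 149 and 387 bp outside the lower end of the gene record, inside the noncoding gene LOC124905356. With no promoter window for GET4, these summits were not placed against a start site. The starvation peak, chr7:876068-876297, ended before the gene record began. The upper end of SUN1 was 1404 bp from the control summit.

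DNAJC8 encodes a J-domain protein associated with the spliceosome. Its strongest peak had a fold of 6.35 with 46 reads in control cells and 5.97 with 30 reads after HDGF depletion, with summits 31 bp past and 41 bp before the start site. The starvation list had no peak over this promoter. The strongest of its 2 starvation peaks lay at the other end of the gene. Its summit was 33663 bp from the start site and 912 bp beyond the end of the record. This peak had a fold of 2.95, 49 reads and a percentile of 44.17 in its list, with tied peaks at their mean rank. The other had a fold of 2.43 and overlapped a control peak of fold 2.70 inside the gene. DNAJC8 thus met the rule in starvation through peaks that do not lie at the site for which it is strong in the other lists.

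**Figure D2:**
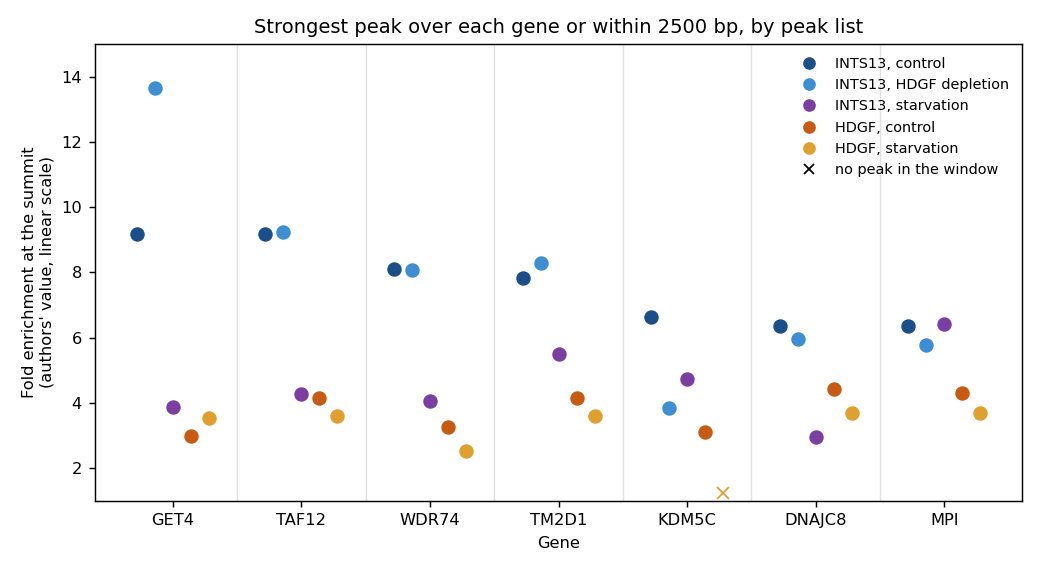
Fold enrichment at the summit (the authors' values, linear axis) of the strongest peak over each gene or within 2500 bp, 1 point per peak list. The INTS13 control points lie between 6.35 and 9.19, the depletion points between 3.85 and 13.7, and the cross for KDM5C marks no HDGF peak in starvation.

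All 7 genes had a −log10 q of at least 10 in the INTS13 control list, where 0.454% of protein-coding genes did. Control strength may have been used to choose them. After depletion 6 of 7 reached it, all but KDM5C, against 0.494% of genes, and in starvation TM2D1, KDM5C and MPI did, against 0.714%. The median of the strongest folds was 7.84 in the control list, 8.08 after depletion and 4.28 in starvation, beside 3.24, 3.46 and 3.13 for the protein-coding genes with a peak. The backgrounds differ between the lists, so no change is read from folds set side by side. The order of the genes differed between lists: in the control list the first of the 7 were GET4 and TAF12, in the depletion list GET4, and in the starvation list MPI, in place 22 among genes.

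The strongest INTS13 peaks of all 3 lists overlapped at 6 of the 7 genes, all but DNAJC8. All 7 had some control peak overlapped by a peak of each treated list, as did 2.64% of protein-coding genes. Only genes with INTS13 in all 3 lists can have such a site, and the 7 were chosen for that. Of the 1358 such genes, 528 had one. DNAJC8 did so only through a weak site inside the gene, with a starvation −log10 q of 1.32, the lowest value of that list. There the depletion and starvation peaks did not overlap each other. At the 6 genes other than DNAJC8 the depletion summit lay between 7 and 100 bp from the control summit. The starvation summit lay between 21 and 171 bp from it. GET4 had the longest of the starvation distances, 171 bp, and TAF12 at RNU11 the next, 111 bp. At DNAJC8 the depletion summit was 72 bp away and the nearest starvation summit, of fold 2.61, was 3316 bp away. Among genes with INTS13 in all 3 lists over a promoter window, the median distance from the control summit was 36.5 bp for depletion and 37 bp for starvation over TAF12, TM2D1, KDM5C and MPI. Over the other 155 genes it was 58 and 50 bp. The other genes also had weaker peaks, with a median control fold of 3.92 against 6.62, and the part of peak strength in the distance was not tested.

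HDGF was found in the window of all 7 genes in control cells, beside 49.7% of protein-coding genes, and of 6 of 7 in starvation, beside 41.1%. The 6 with both leave out KDM5C, and 31.5% of genes had both. The same 6 had a peak in all 5 lists, as did 5.91% of genes. Among the 1358 genes with INTS13 in all 3 lists, for which the 7 were chosen, 1183 had a peak in all 5. Beside that base, 6 of 7 does not set the genes apart. The strongest HDGF fold in control cells was 4.42 at DNAJC8, 4.29 at MPI, 4.16 at TAF12 and at TM2D1, 3.25 at WDR74, 3.12 at KDM5C and 2.99 at GET4. In starvation it was 3.70 at DNAJC8 and at MPI, 3.61 at TAF12 and at TM2D1, 3.52 at GET4 and 2.54 at WDR74. The median was 4.16 in control cells and 3.61 in starvation, beside 3.12 and 3.07 for the protein-coding genes with an HDGF peak. DNAJC8, MPI, TAF12 and TM2D1 stood high in the HDGF control list, at percentiles of 99.04, 98.73, 98.29 and 98.29. WDR74, KDM5C and GET4 stood lower, at 81.91, 74.32 and 64.14. None of the peaks reached a −log10 q of 10.

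HDGF peaks lay across the bodies of some of the genes. In control cells HDGF peaks covered 74.4% of the TAF12 record, 66.6% of DNAJC8, 51.1% of TM2D1 and 45.6% of MPI, and 17.1% of WDR74, 3.19% of KDM5C and 0% of GET4. The mean over protein-coding genes was 4.60% and the median 0%. In starvation the covered share was 61.6% at MPI, 31.4% at DNAJC8, 30.8% at TAF12, 8.20% at GET4, 5.82% at TM2D1, 2.43% at WDR74 and 0% at KDM5C, beside a mean of 4.65%. MPI and GET4 were the 2 of the 7 with the larger share in starvation.

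The strongest INTS13 control peak shared at least 1 base with an HDGF control peak at TAF12, DNAJC8 and MPI, by 319, 159 and 61 bp. The HDGF summits there lay 329, 269 and 279 bp from the INTS13 summits, so no pair of summits was within 250 bp. The strongest INTS13 starvation peak shared bases with HDGF of starved cells at TM2D1, where the summits were 216 bp apart, and at DNAJC8. At DNAJC8 this was the peak of fold 2.95 beyond the end of the gene, not the promoter site of control cells. At GET4, WDR74 and KDM5C the strongest INTS13 peak met no HDGF peak of the same cells. The nearest HDGF summit in control cells was 597 bp away at GET4, 2048 bp at WDR74 and 2634 bp at KDM5C, and in starvation 92539 bp at KDM5C. HDGF lay over a promoter window of DNAJC8 and MPI in control cells, 2 of 6 genes beside 3.51%, and of none in starvation, beside 7.41%. Of the 159 genes with INTS13 in all 3 lists over a promoter window, 21.4% had HDGF there in control cells and 40.9% in starvation.

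**Figure D3:**
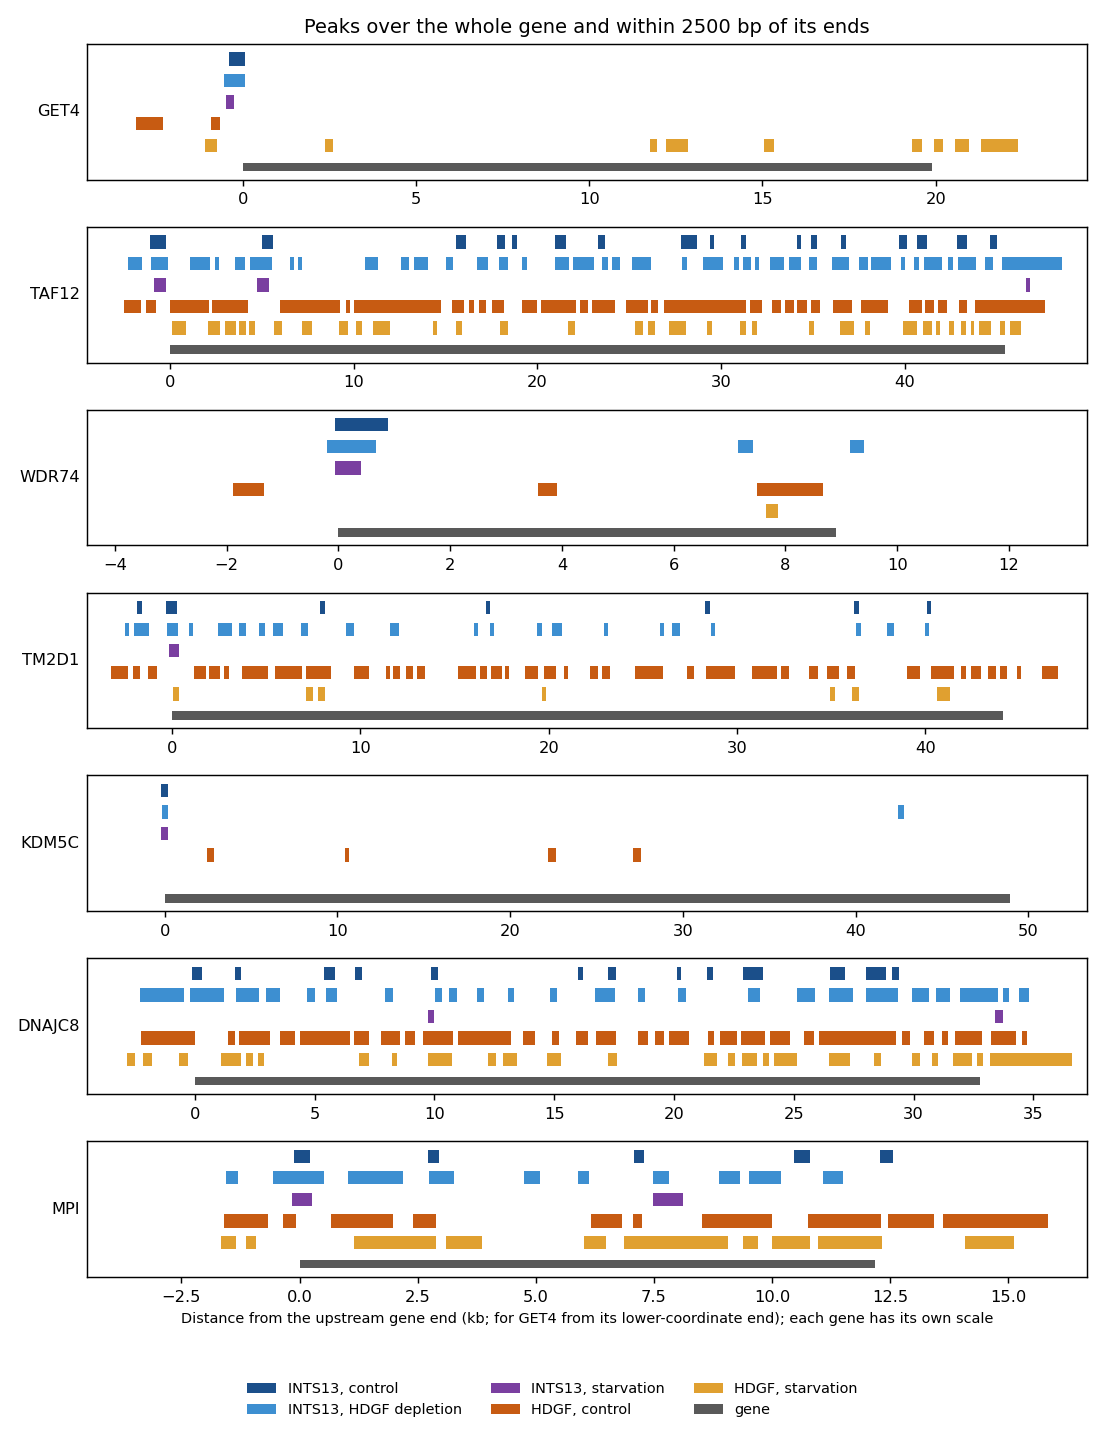
Peaks of the 5 lists over each whole gene and within 2500 bp of its ends, in kb from the upstream end (for GET4 from the lower-coordinate end), with a separate scale for each gene. In control cells TAF12, TM2D1, DNAJC8 and MPI have 10 to 39 HDGF peaks and 5 to 17 INTS13 peaks. GET4, WDR74 and KDM5C have 1 INTS13 peak each in control cells. In starvation every gene has only 1 to 3 INTS13 peaks.

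The genes differed in how many further peaks they held. In control cells INTS13 had 17 peaks in the TAF12 window, 13 at DNAJC8, 7 at TM2D1 and 5 at MPI, but 1 each at GET4, WDR74 and KDM5C. After HDGF depletion the numbers were 38, 24, 22 and 10, and 1, 3 and 2. In starvation TAF12 had 3, DNAJC8 and MPI 2 each, and the other genes 1 each. Apart from the second site of TAF12, the further control peaks were weak, with folds of at most 3.92. Of the 38 control peaks other than the strongest of each gene, 34 overlapped an HDGF control peak. Over all 45 control peaks in the windows the share was 82.2%, beside 45.0% of the whole control list. After depletion, 81 of 100 INTS13 peaks in the windows lay where control cells had HDGF, beside 25.8% of the whole depletion list. In starvation, 4 of 11 overlapped HDGF of starved cells, 36.4%, beside 72.0% of the whole starvation list. At GET4, WDR74 and KDM5C no INTS13 peak of any list overlapped HDGF in this way. TAF12 and DNAJC8 supply most of the control and depletion peaks, and peaks in 1 gene are not independent of each other.

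The surroundings of the genes differed in the same way. Within 500 kb of either end the INTS13 control list held 335 peaks per Mb around TAF12, 313 around DNAJC8, 127 around TM2D1 and 44.5 around MPI, beside a median of 0.957 over protein-coding genes. Around GET4, WDR74 and KDM5C it held 1.96, 2.97 and 0.953 peaks per Mb. TAF12 and DNAJC8 lie in neighbouring parts of chromosome 1 and their surroundings overlap. HDGF in control cells had a like order, with 682 peaks per Mb around DNAJC8, 655 around TAF12, 535 around TM2D1 and 258 around MPI, against 108 around WDR74, 21.6 around GET4 and 15.3 around KDM5C, beside a median of 25.8. Of the 1358 genes with INTS13 in all 3 lists, 410 were on chromosome 1, 30.2%, which is 19.9% of the 2061 protein-coding genes there. The share was higher on chromosomes 21 and 22, at 33.9% and 32.8% of their genes. A gene in a region dense with peaks is more often counted as holding one, and the part of regional density in the membership of TAF12, DNAJC8, TM2D1 and MPI was not tested. GET4 and WDR74 met the rule in regions with fewer INTS13 peaks than those 4, though above the median in the control list, at the 65.7th and 74.6th percentile of genes, and KDM5C in a region close to the median.

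**Figure D4:**
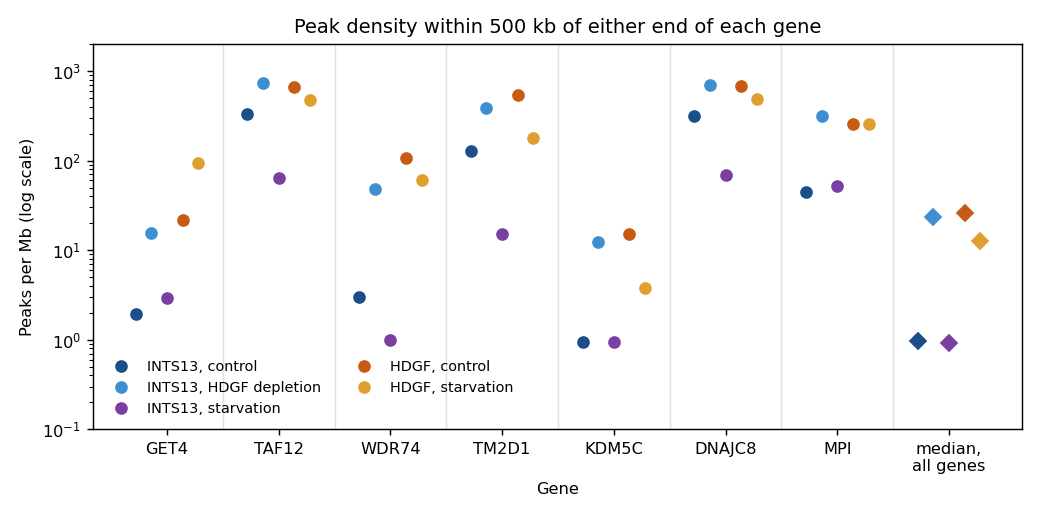
Peaks per Mb within 500 kb of either end of each gene (log axis), 1 point per peak list, with diamonds for the median over protein-coding genes. TAF12, DNAJC8, TM2D1 and MPI lie above the diamonds in every list, and KDM5C lies close to them for INTS13 in control and starvation and below them in the other 3 lists.

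The strongest sites of TAF12 and WDR74 lay at snRNA genes, the classic substrates of Integrator, and the snRNA genes as a list were examined beside them. Of 23 listed snRNA genes, 12 had INTS13 in control cells, 14 after HDGF depletion and 3 in starvation, beside 13.2%, 51.2% and 11.7% of protein-coding genes. The depletion and starvation counts lie near those shares, but the shares are not matched for gene length. The snRNA genes are far shorter than protein-coding genes, whose median length was 24130 bp, so their windows are smaller. The 3 with INTS13 in all lists were RNU11, RNU2-2 and RNU12. RNU12, the gene of the U12 snRNA, had folds of 4.05, 3.85 and 3.07, below those given above for RNU11 and RNU2-2 in each list. In control cells RNU4-1 and RNU4-2, which lie side by side, had a fold of 5.41 and RNU5D-1 had 5.27, and these 3 had no INTS13 peak in starvation. Near-identical snRNA copies can share reads, and how the authors' alignment placed such reads is not given in the sources used here.

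Genes of the pathways and families of the 7 were counted from lists of related genes. Of 6 further genes of tail-anchored protein insertion, GET1 and GET3 had INTS13 in all 3, with folds of 3.78, 4.23 and 3.47 at GET1, a receptor subunit, and 4.59, 5.00 and 3.13 at GET3, the targeting ATPase. Of 15 further TFIID genes, 3 had INTS13 in control cells, 12 after depletion and 3 in starvation, and TAF8 alone was in all 3 lists, with folds of 4.73, 5.77 and 5.55. TAF4 had a starvation fold of 7.52 and no control peak. Of KDM5A and KDM5B, neither had INTS13 in starvation. TM2D3 was in all 3 lists, with folds of 4.46, 4.81 and 4.80, and TM2D2 in none. NVL, an ATPase that acts with WDR74 in ribosome maturation, had folds of 4.32, 5.39 and 2.95, whereas MTREX and RPF1 had INTS13 after depletion alone. GMPPB, a GDP-mannose synthesis enzyme, was in all 3 lists with folds of 2.84, 3.66 and 3.18, among 7 further genes of mannose and hexose phosphate metabolism, and all 7 had INTS13 after depletion. Of DNAJC17, SRPK1 and SRPK2, none had INTS13 in control cells or in starvation. These counts stand beside 13.2%, 51.2% and 11.7% of all protein-coding genes in the 3 lists and 6.78% in all of them, and TAF8, as 1 of 15 TFIID genes, lies near the latter share.

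The genes most like the median of the 7 were found from the percentile of the strongest peak in each of the 5 lists, as the Euclidean distance over the lists. The nearest were B4GALT3 and PPOX, neighbours with the same peaks, at a distance of 2.50 percentile points, then USP1 at 3.18, RPRD2 at 3.21 and TMEM242 at 3.59. The 7 themselves were not alike by this measure: TAF12 lay 0.0925 from their median, TM2D1 2.55 and MPI 3.58, but GET4 34.3, DNAJC8 52.0, WDR74 83.9 and KDM5C 97.9. GET4, WDR74 and KDM5C lay far from it mainly through HDGF, and DNAJC8 through its INTS13 starvation peak, at percentile 44.17 against a median of 96.15.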

How the data were processed

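INTS13 and HDGF ChIP-seq of HEK293T cells was used as 5 deposited peak lists, 1 per ChIP group of 2 labelled replicates. Nothing in the labels says how the replicates were made or combined, and the 6 input samples were not analysed here. The submitters' processing notes name hg38 as the build, and MACS2, Picard, Bowtie, Trimmomatic and FastQC as tools. Their versions and settings, and the use of inputs, were not given in the sources used here. For every peak the authors deposited an integer score, a fold enrichment (a ratio to background), a −log10 p-value, a −log10 q-value and a summit position. The score was not used here, and fold and q describe or rank peaks within a list. In each list the fold and p-value together gave a whole number of reads at the summit and 1 background. Intervals are exact and cover counting error only.

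Genes and promoter windows came from RefSeq tables of GRCh38.p14. A gene held a peak when they shared at least 1 base within 2500 bp of the gene record. Positions are 1-based. Peaks on alternate sequences were left out. With 1 list per group there is no test and no p-value of a difference. The 7 genes, the related genes and the motifs were chosen with earlier results of these data known. Named genes were the 7, the genes under or within 2500 bp of their strongest INTS13 peaks, the 5 genes most alike, and the related genes in all 3 INTS13 lists. Others named (FBXO28, RNU4-1, RNU4-2, RNU5D-1, TAF4 and list members at 0) were chosen after their values were seen. The overlap counts and recovered reads were tested on simulated data. Python 3.11.15, pandas 2.3.3, scipy 1.17.1 and matplotlib 3.10.9 were used. Alternatives were a 1000 bp window, the gene body alone, summits in place of peaks, −log10 q minima of 5 and 10, lists cut to the 15639 strongest peaks, and stricter overlap. Coverage over a promoter window, and a single control peak overlapped in both treated lists, were added after the data were seen.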

Additional observations from a re-analysis of the deposited data

How the results depend on the processing

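No paired analysis was possible because each group had 1 deposited peak list for its 2 replicates, and for the same reason no replicate could be left out. All 7 genes kept INTS13 in the 3 lists with a 1000 bp window and with summits in the window. All 7 also did with 1 control peak overlapped in both treated lists, DNAJC8 only through its weak site inside the gene. With the gene body alone and with lists of equal length 6 did, and 5 with a −log10 q of at least 5. Requiring a −log10 q of 10 or more left 2 (TM2D1 and MPI), and over the same promoter window 4. The 1358 protein-coding genes with INTS13 in all 3 lists became 247 and 25 with −log10 q minima of 5 and 10, 781 with lists of equal length, 159 over the same promoter window and 528 with 1 control peak overlapped in both treated lists. By construction the first 3 of these counts use fewer peaks, the promoter count is over the 15842 genes with a window, and the last adds a requirement of overlap. Of the 6 genes with HDGF in both lists, 0 were left with a −log10 q of at least 10 and 4 to 6 under the other settings. The strongest INTS13 peaks of the 3 lists overlapped at 6 genes and also had summits within 250 bp at 6, but shared at least 50% of both peaks at 3. Overlap of the strongest INTS13 peak with HDGF, at 3 genes in control cells and 2 in starvation, was 0 and 1 with summits within 250 bp and likewise 0 and 1 where 50% or more of each peak was shared. The starvation summit of DNAJC8 lay −33632 bp from the control summit as the strongest peak and 3316 bp as the nearest. The other 13 of 14 summit distances did not change. Depth differed between lists, with backgrounds of 4.20 to 15.2 reads, so an absent peak says only that none was called at that depth.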

Other observations

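Just below the 7 genes in control strength stood pairs of neighbouring genes whose strongest INTS13 folds were equal in all 3 lists. These genes were chosen after their values were seen. CPSF2, a subunit of the pre-mRNA cleavage and polyadenylation machinery, and NDUFB1, a complex I subunit, had folds of 6.08, 6.16 and 4.98 in control, HDGF-depleted and starved cells. APIP, a methionine salvage enzyme, and PDHX, a pyruvate dehydrogenase component, had 6.08, 5.39 and 4.05. Together with GET4 and SUN1, and KDM5C and IQSEC2, these are 4 pairs of genes counted with equal values under the 2500 bp window. In the last of them the peak covered KDM5C and not IQSEC2 in all 3 lists, and SUN1 was likewise not under the peak beside GET4. FBXO28, the gene next below MPI in the control list, had folds of 6.22, 5.20 and 6.999, and C1QTNF3, which stood level with GET4 and TAF12 in control cells at 9.19, had 10.8 and 10.1 in the treated lists.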
